A study of Homo sapiens with 7 samples.

Results

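The genes described here are 45 interferon-stimulated genes that encode antiviral proteins and the ISG15 ubiquitin-like system. They were chosen by gene symbol, from a list of known interferon-stimulated effectors, and are 45 of the 63677 genes in the count table. The choice was made with earlier results of these data known. Each symbol matched 1 gene, and all 45 passed the filter on low counts that left 17502 genes for testing. RNA was sequenced from T47D, a human breast cancer line of luminal type that expresses the estrogen receptor, in 2 libraries of resistant clone 2, 2 libraries of resistant clone 4 and 3 libraries of the parental, palbociclib-sensitive cells. Both resistant lines had been selected with the CDK4/6 inhibitor palbociclib, whose dose was raised over 6 months from 1 to 5 uM. Per the labels' protocols, experiments were done in drug-free medium unless noted otherwise, and all cells grew in the same serum-containing medium with insulin, EGF and hydrocortisone. Each resistant line is 1 clone, so the effect of resistance cannot be told apart from that of the clone. The labels call the libraries of a group biological replicates, without saying how their cultures were kept apart, so the p-values measure the spread between these libraries.

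Type I and type III interferons bind cell-surface receptors whose JAK kinases activate transcription factors. A complex that holds IRF9 then binds the interferon-stimulated response element, or ISRE, in target promoters, while type II interferon acts mainly through the gamma-activated site, or GAS. Products of the target genes block virus entry, degrade or edit viral RNA, deplete nucleotides, or attach ISG15 to other proteins in a cascade like that of ubiquitin, and tumour cells can express many of them without a virus.

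Library totals ran from 10997625 to 17524621 counts. Levels are library-scaled counts (TMM-scaled CPM). A gene was called where the p of edgeR's quasi-likelihood test, adjusted across the 17502 genes by the method of Benjamini and Hochberg, was below 0.05. The 8 luminal epithelial markers, all clearly expressed, summed to 10000 and 9578 CPM in clone 2 and 11280 and 12550 CPM in clone 4, against 14110, 15070 and 17640 CPM in parental cells. Of them 0 were higher and 5 lower in clone 2 (KRT8, KRT18, PGR, ESR1 and FOXA1), and 1 was higher (EPCAM) and 2 lower (KRT8 and PGR) in clone 4. Of all genes tested, 21.7% were called higher and 20.8% lower in clone 2. In clone 4, 22.1% were called higher and 22.3% lower, so the 2 of 8 lower there are near that share. RB1, the cell cycle brake downstream of CDK4 and CDK6, was at 28.3 and 29.1 CPM in clone 2 and 0.137 and 0.25 CPM in clone 4, against 57.9, 49.6 and 58.0 CPM in parental cells. The clone 4 libraries did not match each other evenly over the interferon genes. Replicate 1 was the higher in 39 of the 45, with a median log2 ratio of 0.36, while it was the higher in 52.8% of all genes tested. In parental cells replicate 1 exceeded replicate 3 in 34 of the 45, with a median log2 ratio of 0.33, and the clone 2 libraries differed by a median of 0.04. The fits without each of these libraries are given with the results they changed. Over all genes, the chi-square per degree of freedom between replicates was 1.5 in clone 2, 13.2 in clone 4 and 5.48 to 17.5 in parental pairs. It is near 1 where libraries differ by counting error alone. The clone 2 libraries thus differed little beyond counting error, and whether they came from separate cultures was not tested.

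In clone 2, 36 of the 45 genes were higher than in parental cells, 0 were lower and 9 were not called. In clone 4, 38 were higher, 1 was lower and 6 were not called. The background was large, with 42.5% of all genes tested called in clone 2 (21.7% higher) and 44.4% called in clone 4 (22.1% higher). A rise of at least 2-fold was called for 31 of the 45 genes in each clone, against 9.92% of all genes in clone 2 and 8.45% in clone 4. A fall of at least 2-fold was called for 0 of the 45, against 4.02% of all genes in clone 2 and 6.88% in clone 4. The median log2 fold change was 1.43 in clone 2 and 1.41 in clone 4 over the 45 genes. It was 0.016 and 0.005 over all genes. The same 34 genes were called higher in both clones. The clones were compared with the same parental libraries, so these counts are not independent of each other. Because the genes were chosen with earlier results of these data known, the shares of all genes are a background and not a test. In bulk RNA, a larger share of expressing cells and more RNA per cell cannot be told apart.

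Summed over the 45 genes, the level was 3353 and 3298 CPM in clone 2 and 3801 and 3081 CPM in clone 4, against 1319, 1243 and 1181 CPM in parental cells. Every library of both clones thus lay above every parental library for the sum. For single genes, both clone 2 libraries lay above all parental libraries in 41 of the 45, against 34.2% of all genes, and both clone 4 libraries did so in 38, against 31.1%. Of the 45 genes, 6 (GBP1, GBP3, RSAD2, CMPK2, SAMD9L and RTP4) passed the filter on low counts only through the clones, so that a difference was built in for them. These 6 are included in the 2-fold rises, medians and library comparisons above. Among the other 39, 30 were higher and 0 lower in clone 2, and 32 were higher and 1 lower in clone 4. The median log2 fold changes of these 39 were 1.33 in clone 2 and 1.32 in clone 4. Leaving out each of the 7 libraries in turn gave 35 to 37 of the 45 called in clone 2 and 35 to 40 called in clone 4.

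**Figure D1:**
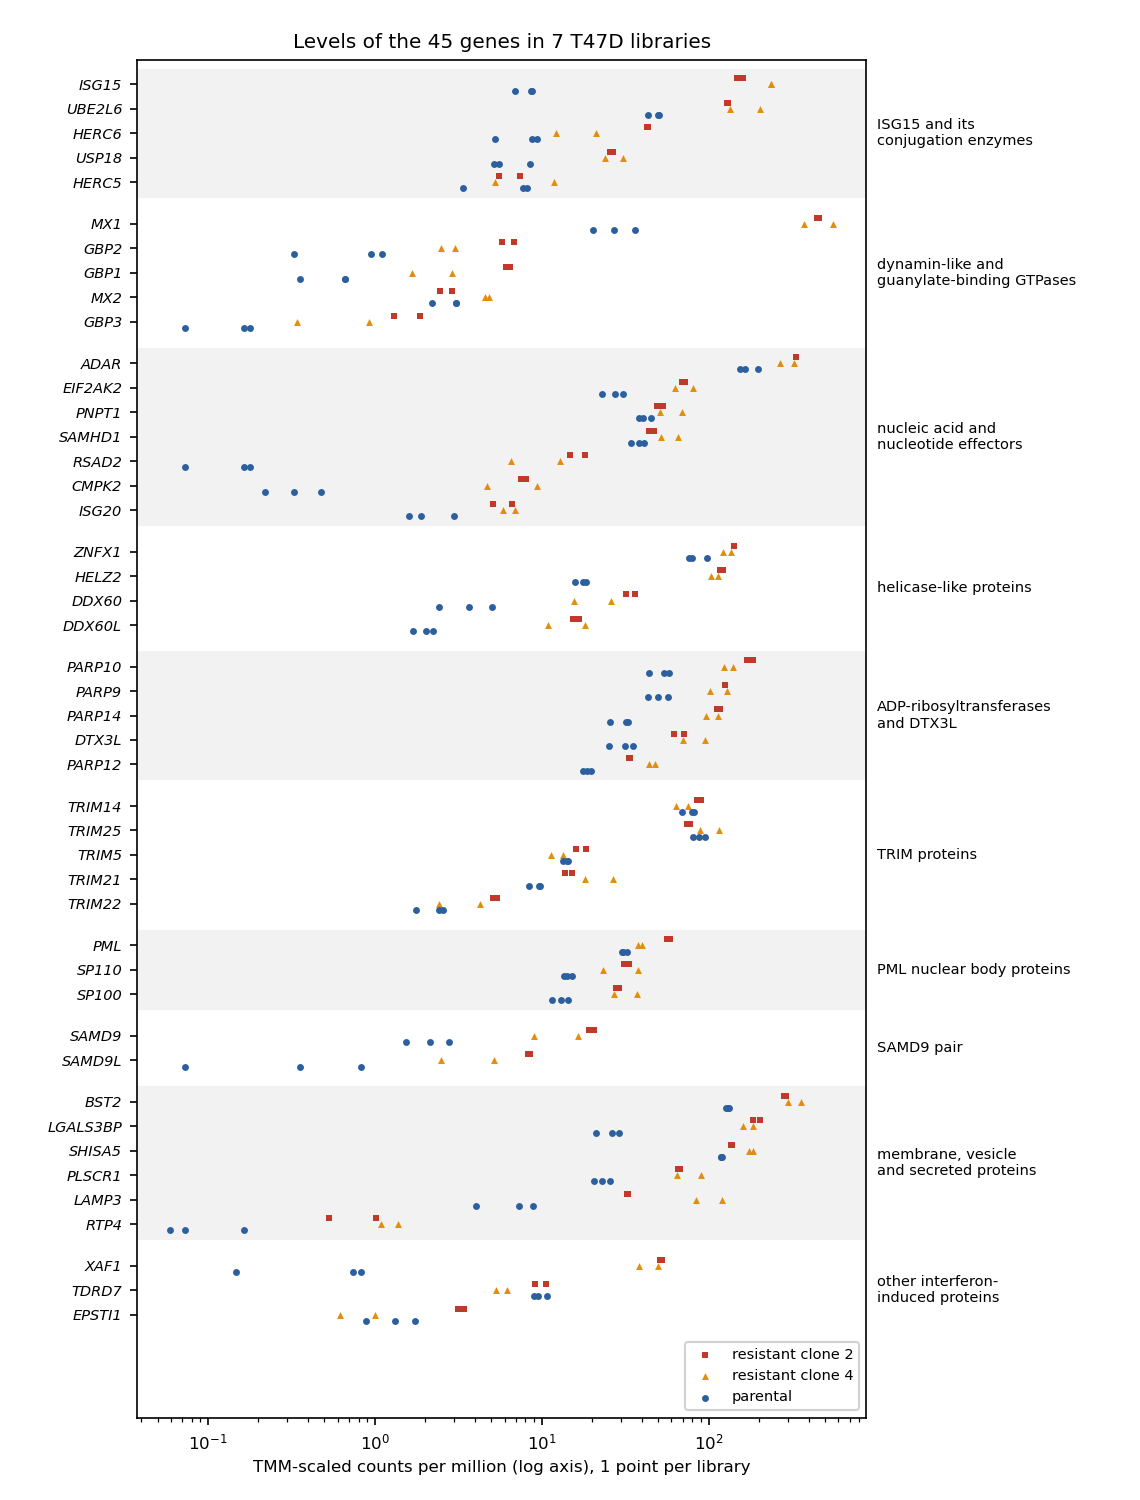
Level of each of the 45 genes in every library, in CPM on a log axis, grouped by role, with clone 2, clone 4 and parental cells as separate symbols. RSAD2 and XAF1 show the widest gaps between the clones and parental cells, while the HERC5 points of all 3 groups overlap.

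The summed leukocyte marker RNA was low in both clones but above that of parental cells. The 10 markers summed to 13.7 and 11.9 CPM in clone 2 and 12.1 and 10.7 CPM in clone 4, against 5.78, 6.41 and 7.4 CPM in parental cells. TYROBP was at 0 in every library and 6 of the 10 markers stayed under 1 CPM everywhere. The 7 fibroblast markers summed to 238 and 214 CPM in clone 2 and 71.6 and 104 CPM in clone 4, against 40.2, 42.3 and 42.4 CPM in parental cells. COL1A1 made up most of the clone 4 and parental sums, and COL1A1 and COL3A1 those of clone 2, where COL3A1 was at 103 and 88.4 CPM against 0 in clone 4 and at most 0.0593 CPM in parental cells. All 4 fibroblast markers tested were higher in clone 2, while in clone 4 only COL1A1 was called. Of all genes tested, 21.7% were called higher in clone 2 and 22.1% in clone 4. All 5 endothelial markers stayed under 1 CPM in every library. The part of these and of the luminal markers in the interferon results was not tested.

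The promoters of the 45 genes were read for the ISRE letters. RefSeq promoter windows of GRCh38.p14, running from 250 bases before to 50 bases after a transcript start, matched 37 of the 45 genes. The core ISRE, searched on both strands as GAAA, any 2 bases and GAAA, occurred in a window of 24 of the 37 (64.9%), against 4.38% of 27305 genes. The extended form, with CT directly after the core, occurred in 11 of the 37 (29.7%), against 0.322% of all genes, and the GAS letters TTCNNNGAA in 9 (24.3%), against 9.38%. Of windows of this length, 3.57% held the core, 0.273% the extended form and 7.66% the GAS letters. A match describes the letters and says nothing of binding. The windows below are written 5′ to 3′ in the direction of the gene with core or extended ISRE letters in capitals, on either strand. ISG15, on chr1:1013247-1013546 (plus strand), is shown because it rose the most among the ISG15 system genes. HERC5, on chr4:88456869-88457168 (plus strand), is shown because it holds 3 core matches, on the opposite strand, and was not called in either clone. DTX3L, on chr3:122564088-122564387 (plus strand), is shown because its single site lies in a window of the neighbouring PARP9 as well. DDX60, on chr4:168318703-168319002, and DDX60L, on chr4:168480443-168480742 (both minus strand), are shown as neighbouring relatives with the same arrangement of a core match upstream of an extended one. EPSTI1, on chr13:42992192-42992491 (minus strand), is shown because it was called higher in clone 2 only.
ISG15: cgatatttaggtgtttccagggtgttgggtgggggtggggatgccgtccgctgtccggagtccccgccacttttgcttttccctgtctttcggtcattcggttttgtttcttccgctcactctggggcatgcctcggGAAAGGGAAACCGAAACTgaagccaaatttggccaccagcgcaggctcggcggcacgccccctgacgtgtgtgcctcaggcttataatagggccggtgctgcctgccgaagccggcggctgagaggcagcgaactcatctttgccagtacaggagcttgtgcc
HERC5: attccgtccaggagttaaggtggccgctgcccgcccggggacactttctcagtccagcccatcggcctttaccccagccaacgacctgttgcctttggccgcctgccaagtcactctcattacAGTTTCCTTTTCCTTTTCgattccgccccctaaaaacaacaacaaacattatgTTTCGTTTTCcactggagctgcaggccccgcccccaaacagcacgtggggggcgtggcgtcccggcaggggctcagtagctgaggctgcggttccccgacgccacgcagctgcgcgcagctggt
DTX3L: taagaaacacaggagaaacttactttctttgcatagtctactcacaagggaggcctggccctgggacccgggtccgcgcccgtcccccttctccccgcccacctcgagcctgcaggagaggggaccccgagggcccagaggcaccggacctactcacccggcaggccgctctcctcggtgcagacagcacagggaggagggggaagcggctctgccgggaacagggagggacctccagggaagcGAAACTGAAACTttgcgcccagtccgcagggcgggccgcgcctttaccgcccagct
DDX60: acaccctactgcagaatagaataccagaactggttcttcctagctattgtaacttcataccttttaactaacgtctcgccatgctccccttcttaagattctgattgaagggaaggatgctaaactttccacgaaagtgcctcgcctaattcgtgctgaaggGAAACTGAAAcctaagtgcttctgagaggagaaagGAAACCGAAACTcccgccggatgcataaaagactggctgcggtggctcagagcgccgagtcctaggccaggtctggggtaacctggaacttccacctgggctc
DDX60L: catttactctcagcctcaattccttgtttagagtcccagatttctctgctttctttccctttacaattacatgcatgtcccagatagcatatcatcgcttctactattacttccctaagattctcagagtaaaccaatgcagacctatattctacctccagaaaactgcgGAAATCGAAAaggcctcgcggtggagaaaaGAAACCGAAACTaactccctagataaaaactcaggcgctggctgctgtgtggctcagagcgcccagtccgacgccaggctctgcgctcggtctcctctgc
EPSTI1: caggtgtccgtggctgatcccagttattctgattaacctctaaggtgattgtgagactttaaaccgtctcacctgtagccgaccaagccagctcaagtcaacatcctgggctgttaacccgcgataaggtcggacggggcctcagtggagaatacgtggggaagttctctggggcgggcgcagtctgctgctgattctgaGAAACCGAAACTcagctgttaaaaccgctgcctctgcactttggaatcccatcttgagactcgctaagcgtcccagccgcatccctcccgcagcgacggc
Counted from the transcript start with upstream positions negative, the extended match began at -107 in ISG15 and at -127 in HERC5. It began nearer the start in DDX60 (-53), DDX60L (-50) and EPSTI1 (-50). The DTX3L and PARP9 windows share the site at chr3:122564332-122564343. Genes with and without a core match were called higher. Among the 24 genes with a core match, 20 were called higher in clone 2 and 20 in clone 4, with median log2 fold changes of 1.48 and 1.64. Among the 13 genes without one in any window, 9 were called higher in clone 2 and 11 in clone 4, with medians of 1.17 and 1.10. XAF1 and CMPK2, whose changes were among the largest, had no core match in their windows.

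**Figure D2:**
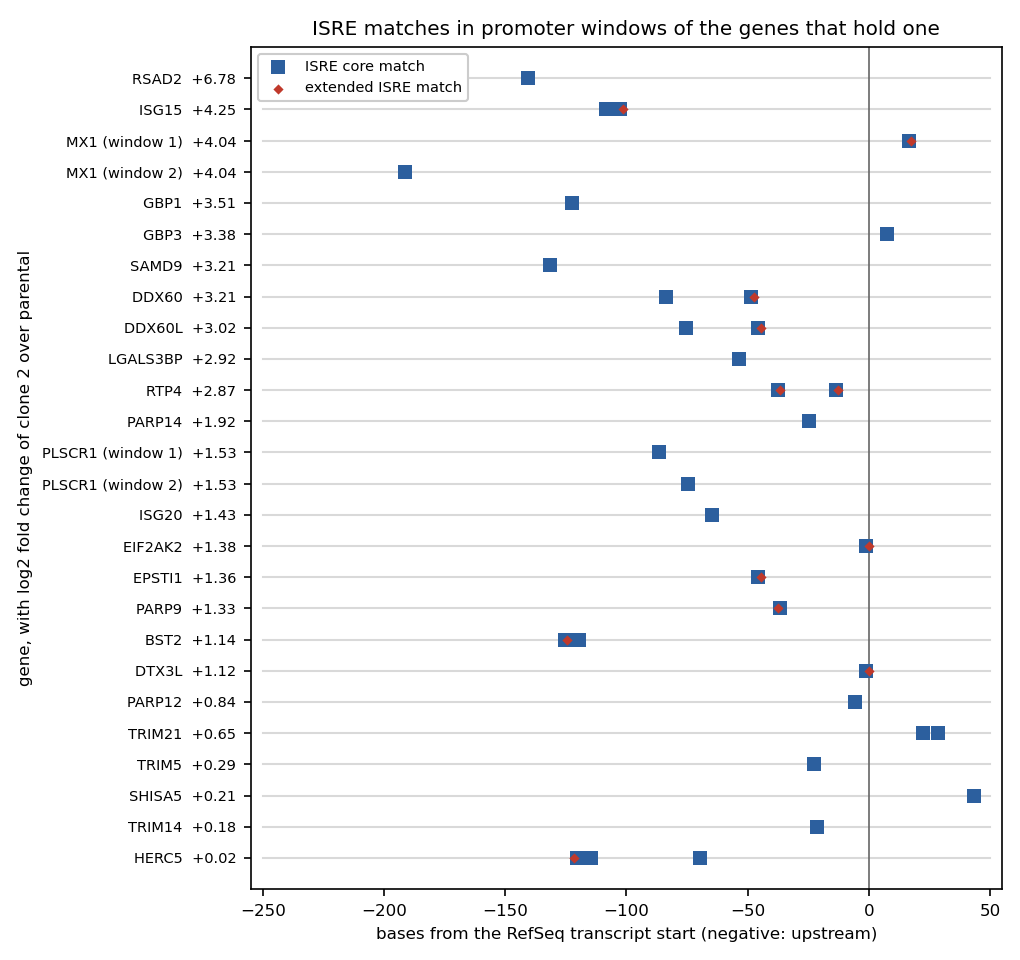
Midpoint of each ISRE match in the promoter windows that hold one, in bases from the RefSeq transcript start (negative values lie upstream), with genes ordered by the log2 fold change of clone 2 over parental cells that stands beside each name. The extended ISRE matches of HERC5 and ISG15 lie farther upstream than those of DDX60, DDX60L and EPSTI1.

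ISG15, UBE2L6, HERC6 and USP18 of the ISG15 system rose in both clones, and HERC5 was called in neither. ISG15, the ubiquitin-like modifier itself, was at 161 and 149 CPM in clone 2 and 235 and 237 CPM in clone 4, against 8.75, 8.66 and 6.96 CPM in parental cells. Every clone library lay above every parental one, and clone 4 lay above clone 2. The log2 fold change was 4.25 ± 0.118 (SE) in clone 2 and 4.86 ± 0.119 in clone 4 (adjusted p = 1.83e-11 and 4.13e-12, edgeR). UBE2L6, the E2 enzyme that carries ISG15, was at 129 and 131 CPM in clone 2 and 203 and 134 CPM in clone 4, against 50.4, 49.7 and 43.5 CPM in parental cells. Its log2 fold change was 1.44 ± 0.144 in clone 2 and 1.82 ± 0.144 in clone 4. UBA7, the E1 enzyme and not among the 45, was at 10.2 and 10.2 CPM in clone 2 and 12.4 and 9.52 CPM in clone 4, against 4.87, 3.68 and 4.25 CPM in parental cells, and was called higher by 1.27 and 1.38 on the log2 scale. USP18, the protease that removes ISG15 and also restrains the type I receptor, was at 26.6 and 25.8 CPM in clone 2 and 30.9 and 23.9 CPM in clone 4, against 8.50, 5.58 and 5.20 CPM in parental cells. Its log2 fold change was 2.04 ± 0.183 in clone 2 and 2.11 ± 0.183 in clone 4 (adjusted p = 1.55e-06 and 1.12e-06, edgeR). Of its 50-base words, 23.0% occur in USP41 too, which had 1 count over all libraries.

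The E3 ligases HERC5 and HERC6 sit next to each other on chromosome 4. HERC6 was called in both clones and HERC5 in neither, and the difference between the genes was not tested. HERC5, the main ISG15 ligase in human cells, was at 5.55 and 7.38 CPM in clone 2 and 11.9 and 5.26 CPM in clone 4, against 8.17, 7.77 and 3.37 CPM in parental cells. The 3 groups overlap, and the fold could not be resolved: the 95% interval of the log2 fold change ran from -0.90 to 0.94 in clone 2 and from -0.46 to 1.32 in clone 4. Without clone 4 replicate 1 its value in clone 4 was -0.30, and without clone 4 replicate 2 it was 0.88. HERC6, the paralogue that is the main ISG15 ligase in mice, was at 43.4 and 42.5 CPM in clone 2 and 21.2 and 12.3 CPM in clone 4, against 8.75, 9.43 and 5.28 CPM in parental cells. The clone 2 libraries lay above those of clone 4 and all of these above the parental ones, with log2 fold changes of 2.45 ± 0.226 and 1.10 ± 0.241. Without clone 4 replicate 1 the HERC6 change in clone 4 was 0.64 and not called (adjusted p = 0.06, edgeR).

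**Figure D3:**
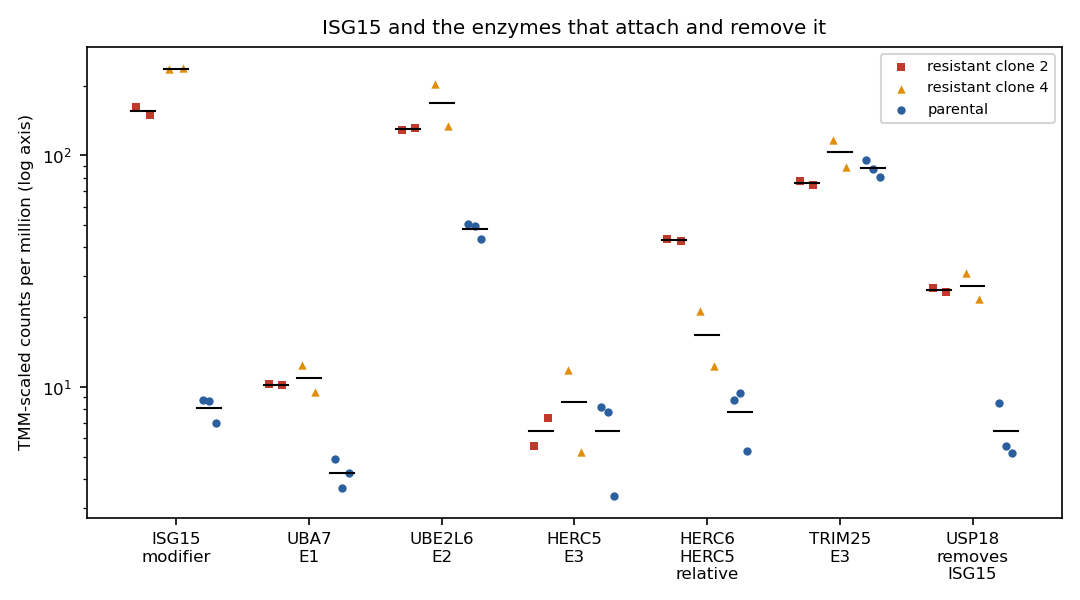
TMM-scaled CPM on a log axis of ISG15, UBA7, UBE2L6, HERC5, HERC6, TRIM25 (also an ISG15 ligase) and USP18, with 1 point per library and a bar at the mean of clone 2, clone 4 and parental cells. ISG15 and USP18 of both clones lie above all parental libraries, and the HERC5 libraries of all 3 groups overlap.

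The dynamin-like and guanylate-binding GTPases rose in both clones, except that MX2 was called only in clone 4. MX1, which blocks influenza virus replication, was at 462 and 449 CPM in clone 2 and 559 and 374 CPM in clone 4, against 36.1, 27.1 and 20.2 CPM in parental cells. Its log2 fold change was 4.04 ± 0.220 in clone 2 and 4.07 ± 0.220 in clone 4 (adjusted p = 2.62e-07 and 2.46e-07, edgeR). Its neighbour MX2, a GTPase that acts against HIV-1, was at 2.48 and 2.89 CPM in clone 2 and 4.81 and 4.59 CPM in clone 4, against 3.05, 3.08 and 2.20 CPM in parental cells. Clone 2 overlaps the parental libraries, and clone 4 lies above both, with log2 fold changes of -0.04 ± 0.238 and 0.75 ± 0.220. Leaving out clone 4 replicate 1 ended the MX2 call in clone 4 (0.71, adjusted p = 0.0625) and so did DESeq2 (adjusted p = 0.0547).

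GBP1, GBP2 and GBP3, neighbours on chromosome 1 that encode GTPases that act on pathogen-containing vacuoles, were higher in both clones and higher in clone 2 than in clone 4. GBP1 was at 6.49 and 6.08 CPM in clone 2 and 2.88 and 1.67 CPM in clone 4, against 0.660, 0.356 and 0.660 CPM in parental cells, for log2 fold changes of 3.51 ± 0.308 and 2.08 ± 0.364. GBP2 was at 5.80 and 6.84 CPM in clone 2 and 3.02 and 2.50 CPM in clone 4, against 0.330, 0.949 and 1.10 CPM in parental cells, for log2 fold changes of 2.95 ± 0.301 and 1.76 ± 0.344. GBP3 was at 1.88 and 1.30 CPM in clone 2 and 0.344 and 0.918 CPM in clone 4, against 0.165, 0.178 and 0.0733 CPM in parental cells, for log2 fold changes of 3.38 ± 0.547 and 2.04 ± 0.677. In all 3 genes every library of the clones lay above every parental library. GBP1 and GBP3 passed the filter on low counts only through the clones, so that this difference was built in for them. GBP3 had the fewest counts, and leaving out clone 4 replicate 2 (1.24, adjusted p = 0.322) or parental replicate 3 (1.75, adjusted p = 0.0653) ended its call in clone 4. With all 7 libraries the adjusted p was 0.0252.

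Among the nucleic acid and nucleotide effectors, 5 of 7 were called higher in clone 2 and 7 of 7 in clone 4, against 21.7% and 22.1% of all genes. RSAD2, or viperin, which makes a chain-terminating nucleotide, had the largest change of the 45 genes in clone 2. It was at 18.1 and 14.9 CPM in clone 2 and 12.8 and 6.59 CPM in clone 4, against 0.165, 0.178 and 0.0733 CPM in parental cells. The log2 fold change was 6.78 ± 0.398 in clone 2 and 6.04 ± 0.426 in clone 4 (adjusted p = 2.51e-08 and 1.61e-07, edgeR). CMPK2, the neighbour of RSAD2 on chromosome 2 that phosphorylates nucleotides, was at 8.11 and 7.55 CPM in clone 2 and 9.34 and 4.67 CPM in clone 4, against 0.330, 0.474 and 0.220 CPM in parental cells, with log2 fold changes of 4.44 and 4.30, the second being 3.70 without clone 4 replicate 1. In parental cells both genes had few reads, and these folds rest on them. Both genes passed the filter on low counts only through the clones, so that a difference was built into their tests. ISG20, an exonuclease that degrades viral RNA, EIF2AK2 (PKR), the double-stranded RNA kinase that shuts down translation, and ADAR, which edits double-stranded RNA, rose by 1.43, 1.38 and 0.96 in clone 2. In clone 4 they rose by 1.54, 1.41 and 0.79 on the log2 scale.

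SAMHD1, which depletes deoxynucleotides, was at 43.9 and 47.3 CPM in clone 2 and 66.1 and 51.6 CPM in clone 4, against 38.3, 34.4 and 41.0 CPM in parental cells. The libraries of both clones lay above the parental ones, but the log2 fold change of 0.27 in clone 2 was not called (adjusted p = 0.1, edgeR), while 0.64 in clone 4 was (adjusted p = 0.000973). TLDC2, on the opposite strand, covers 10.3% of its exon length, and the strand setting of the counting is not given in the sources used here. PNPT1, a mitochondrial RNA-degrading enzyme, was at 49.3 and 53.1 CPM in clone 2 and 69.2 and 51.0 CPM in clone 4, against 38.3, 40.3 and 44.9 CPM in parental cells. Its log2 fold change of 0.32 in clone 2 was not called (adjusted p = 0.0673) and 0.55 in clone 4 was (adjusted p = 0.0039). Leaving out clone 4 replicate 1 ended that call (0.30, adjusted p = 0.0752).

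All 4 helicase-like genes rose in both clones. DDX60L was at 16.8 and 15.5 CPM in clone 2 and 18.1 and 10.9 CPM in clone 4, against 2.23, 2.02 and 1.69 CPM in parental cells, with log2 fold changes of 3.02 ± 0.227 and 2.88 ± 0.230. Its neighbour DDX60, a helicase linked to viral RNA sensing, rose by 3.21 in clone 2 and 2.51 in clone 4, which differed from each other by 0.70 ± 0.227. HELZ2, a helicase-like nuclear receptor coactivator, rose by 2.79 and 2.65. ZNFX1, a helicase-like double-stranded RNA sensor of the mitochondrial surface, had the smallest rise. It was at 142 and 142 CPM in clone 2 and 136 and 123 CPM in clone 4, against 76.3, 79.5 and 97.8 CPM in parental cells, with log2 fold changes of 0.75 ± 0.114 and 0.61 ± 0.114.

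All 5 genes of the ADP-ribosyltransferase group rose in both clones. PARP14, a mono-ADP-ribosyltransferase, was at 112 and 116 CPM in clone 2 and 114 and 96.4 CPM in clone 4, against 32.9, 32.1 and 25.6 CPM in parental cells, with log2 fold changes of 1.92 ± 0.122 and 1.80 ± 0.122. PARP12, an enzyme of the same class, was at 34.0 and 33.2 CPM in clone 2 and 47.7 and 43.9 CPM in clone 4, against 18.8, 19.6 and 17.6 CPM in parental cells, with log2 fold changes of 0.84 ± 0.110 and 1.29 ± 0.108. PARP10, another of the class, rose by 1.76 in clone 2 and 1.34 in clone 4. PARP9 and the ubiquitin ligase DTX3L, which form a complex, are transcribed away from a shared promoter region. They rose together, PARP9 by 1.33 in clone 2 and 1.20 in clone 4, and DTX3L by 1.12 and 1.43.

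Of the TRIM proteins, most of which are ubiquitin ligases, 2 of 5 were called higher in clone 2 and 1 of 5 in clone 4, against 21.7% and 22.1% of all genes, so the clone 4 share is near that of all genes. TRIM21, a cytosolic antibody receptor, was at 15.3 and 13.8 CPM in clone 2 and 26.6 and 18.2 CPM in clone 4, against 9.82, 8.42 and 9.60 CPM in parental cells. Its log2 fold change was 0.65 ± 0.172 in clone 2 and 1.28 ± 0.166 in clone 4, and leaving out clone 2 replicate 1 ended the clone 2 call (0.56, adjusted p = 0.0829). TRIM22, which restricts HIV-1 transcription, was at 5.12 and 5.43 CPM in clone 2 and 4.26 and 2.42 CPM in clone 4, against 2.56, 2.43 and 1.76 CPM in parental cells. Clone 2 lay above the parental libraries (1.23 ± 0.255) and 1 clone 4 library overlapped them (0.59 ± 0.274, adjusted p = 0.0966). Without clone 4 replicate 2 it was called in clone 4 (0.92, adjusted p = 0.0243), and without clone 4 replicate 1 the value was 0.10.

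TRIM5, TRIM14 and TRIM25 were called in neither clone. TRIM5, which recognises retroviral capsids, was at 18.4 and 16.1 CPM in clone 2 and 13.5 and 11.3 CPM in clone 4, against 13.4, 14.4 and 14.2 CPM in parental cells, with intervals of the log2 fold change from 0.00 to 0.58 and from -0.48 to 0.13. TRIM14, a mitochondrial adaptor of RNA sensing, was at 89.6 and 85.1 CPM in clone 2 and 63.6 and 74.9 CPM in clone 4, against 80.0, 82.1 and 69.6 CPM in parental cells. TRIM25, the ligase that ubiquitinates RIG-I, was at 77.2 and 74.4 CPM in clone 2 and 116 and 89.4 CPM in clone 4, against 95.9, 87.3 and 80.8 CPM in parental cells. TRIM25 had the lowest value of the 45 genes in clone 2, -0.21 ± 0.122 with an interval from -0.48 to 0.05. Without clone 4 replicate 2, TRIM25 was called higher in clone 4 (0.40, adjusted p = 0.021).

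PML, SP100 and SP110, which encode proteins of PML nuclear bodies, rose in both clones. SP100 was at 29.3 and 27.7 CPM in clone 2 and 37.4 and 27.3 CPM in clone 4, against 14.4, 13.0 and 11.6 CPM in parental cells, with log2 fold changes of 1.13 ± 0.147 and 1.32 ± 0.147. SP110 rose by 1.17 and 1.10, the second value being 0.70 without clone 4 replicate 1. PML, the scaffold of the bodies, was at 58.9 and 56.5 CPM in clone 2 and 39.8 and 37.6 CPM in clone 4, against 30.4, 32.3 and 30.9 CPM in parental cells, with log2 fold changes of 0.89 ± 0.1 and 0.31 ± 0.103. The PML call in clone 4 (adjusted p = 0.0246, edgeR) was lost in 4 of the 7 fits without a library, at 0.26 to 0.30 and adjusted p from 0.0685 to 0.105. Overlapping transcripts cover 20.9% of the exon length of SP110.

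SAMD9 and SAMD9L, neighbours on chromosome 7 that restrict poxviruses and translation, both rose. SAMD9L was at 8.28 and 8.55 CPM in clone 2 and 5.15 and 2.50 CPM in clone 4, against 0.825, 0.356 and 0.0733 CPM in parental cells, with log2 fold changes of 4.37 ± 0.418 and 3.25 ± 0.471. SAMD9 was at 20.5 and 19.2 CPM in clone 2 and 16.6 and 9.02 CPM in clone 4, against 2.15, 1.54 and 2.79 CPM in parental cells, with log2 fold changes of 3.21 ± 0.259 and 2.6 ± 0.269. SAMD9L passed the filter on low counts only through the clones, so that a difference was built in for it. The clone 4 replicates were farther apart than the clone 2 replicates in both genes. Without parental replicate 1 the SAMD9L values were 5.15 in clone 2 and 4.04 in clone 4, and without clone 4 replicate 1 the clone 4 value was 2.61, all called.

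The membrane, vesicle and secreted proteins rose in both clones, apart from SHISA5 in clone 2. BST2, or tetherin, which holds virions at the cell surface, rose by 1.14 in clone 2 and 1.33 in clone 4. PLSCR1, a membrane scramblase, rose by 1.53 and 1.75, and the secreted glycoprotein LGALS3BP by 2.92 and 2.76. RTP4, a receptor transporter, was at 1.02 and 0.531 CPM in clone 2 and 1.37 and 1.08 CPM in clone 4, against 0.165, 0.0593 and 0.0733 CPM in parental cells, with log2 fold changes of 2.87 ± 0.651 and 3.60 ± 0.588. It passed the filter on low counts only through the clones, so that a difference was built in. LAMP3, a lysosomal membrane protein, was at 32.8 and 32.3 CPM in clone 2 and 121 and 83.7 CPM in clone 4, against 8.83, 7.36 and 4.03 CPM in parental cells, with log2 fold changes of 2.27 ± 0.240 and 3.93 ± 0.233. SHISA5, a protein of the endoplasmic reticulum, was at 139 and 137 CPM in clone 2 and 186 and 174 CPM in clone 4, against 119, 118 and 120 CPM in parental cells, and was called only in clone 4 (0.60 ± 0.0903), not in clone 2 (0.21 ± 0.0911, adjusted p = 0.0762).

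Of the remaining 3 genes, XAF1 rose in both clones, EPSTI1 was called only in clone 2 and TDRD7 fell in clone 4. XAF1, which binds the apoptosis inhibitor XIAP, was at 52.3 and 51.0 CPM in clone 2 and 49.8 and 38.4 CPM in clone 4, against 0.743, 0.830 and 0.147 CPM in parental cells, with log2 fold changes of 6.44 ± 0.252 and 6.22 ± 0.255. Another transcript, PRAL, lies on the opposite strand over 38.3% of the XAF1 exon length, and the counts cannot separate the strands without the setting. EPSTI1, named for its induction in epithelium by stroma, was at 3.16 and 3.42 CPM in clone 2 and 0.618 and 1.00 CPM in clone 4, against 1.73, 0.890 and 1.32 CPM in parental cells. Its log2 fold change was 1.36 ± 0.295 in clone 2 (adjusted p = 0.00221) and -0.68 ± 0.394 in clone 4 (adjusted p = 0.177), where leaving out each library gave values from -1.04 to -0.35. TDRD7, a Tudor-domain protein that restricts paramyxoviruses, was at 10.7 and 9.14 CPM in clone 2 and 5.36 and 6.18 CPM in clone 4, against 10.7, 9.02 and 9.46 CPM in parental cells. Clone 4 lay below the parental libraries (-0.75 ± 0.173, adjusted p = 0.00314), and clone 2 overlapped them (0.02 ± 0.160).

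**Figure D4:**
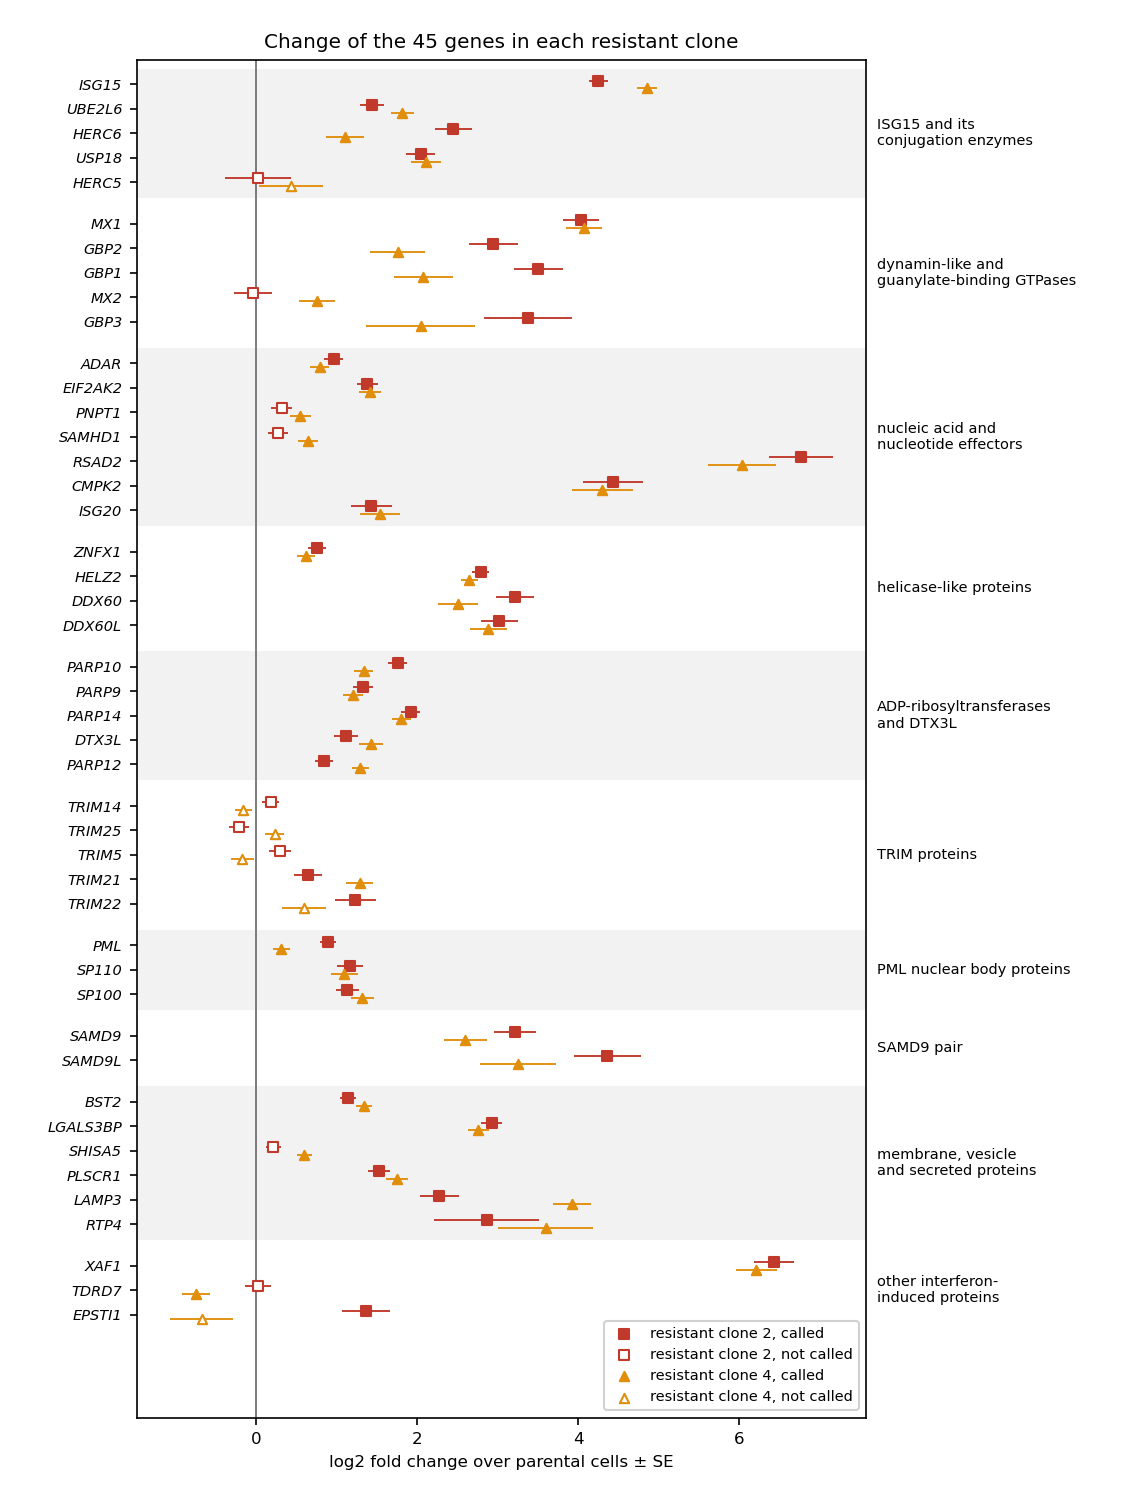
Log2 fold change over parental cells (horizontal axis, ± SE) of the 45 genes in clone 2 and clone 4, grouped by role; filled symbols were called at an adjusted p below 0.05. All called values are above 0 except TDRD7 in clone 4, and TRIM5, TRIM14 and TRIM25 lie near 0 in both clones.

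Per kilobase of exon (GENCODE release 29 lengths), the order of the genes by level changed between the clones and parental cells for some genes and not for others. BST2 was the first of the 45 in all 3 groups, at 256 CPM per kb in clone 2, 294 in clone 4 and 117 in parental cells. ISG15 was the second in both clones, at 165 CPM per kb in clone 2 and 251 in clone 4, and the 8th in parental cells at 8.63. UBE2L6 was the third in each group, at 59.1 CPM per kb in clone 2, 76.6 in clone 4 and 21.8 in parental cells. SHISA5 was the second in parental cells, at 25.5 CPM per kb, and the 7th and 6th in clone 2 and clone 4, at 29.5 and 38.6. RSAD2 was the last in parental cells, and the 30th and 31st in clone 2 and clone 4.

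The direct comparison of the clones called 21 of the 45 genes, 13 higher and 8 lower in clone 2 than in clone 4, where 36.5% of all genes tested were called, 19.6% higher and 17.0% lower. The median log2 fold change was 0.12. In 19 genes both clone 2 libraries lay above both clone 4 libraries, against 38.5% of all genes, and in 11 they lay below, against 33.7%. Higher by at least 2-fold were EPSTI1 (2.04 ± 0.365, adjusted p = 0.000839, edgeR), GBP1 (1.43 ± 0.277), HERC6 (1.35 ± 0.240), GBP3 (1.34 ± 0.472), GBP2 (1.19 ± 0.283) and SAMD9L (1.11 ± 0.333). LAMP3 was the only gene lower by that much (-1.65 ± 0.232, adjusted p = 0.000326). Over all genes tested, 7.46% were higher and 3.55% lower by at least 2-fold. Of the smaller differences, MX2 was -0.80, TRIM21 -0.64 and ISG15 -0.61, while TDRD7 was 0.78, RSAD2 0.74, DDX60 0.70 and PML 0.57. The rest of the 21 lay between -0.45 and 0.47.

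Only 6 of the 21 calls between the clones, ISG15, HERC6, GBP1, PML, LAMP3 and EPSTI1, were kept in each of the 7 fits without a library. With 1 library left in clone 2, its spread was assumed to be that of the other groups. Fewer of the interferon genes were then called between the clones, and fewer of all genes tested as well. The loss of calls in those fits was thus not limited to the interferon genes, though it was proportionally larger among them. Without clone 4 replicate 2 the split was 9 higher and 12 lower. GBP3 was 0.75 without clone 4 replicate 1 (adjusted p = 0.302, edgeR) and 2.14 without clone 4 replicate 2, and SAMD9L was 1.74 without clone 4 replicate 1.

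**Figure D5:**
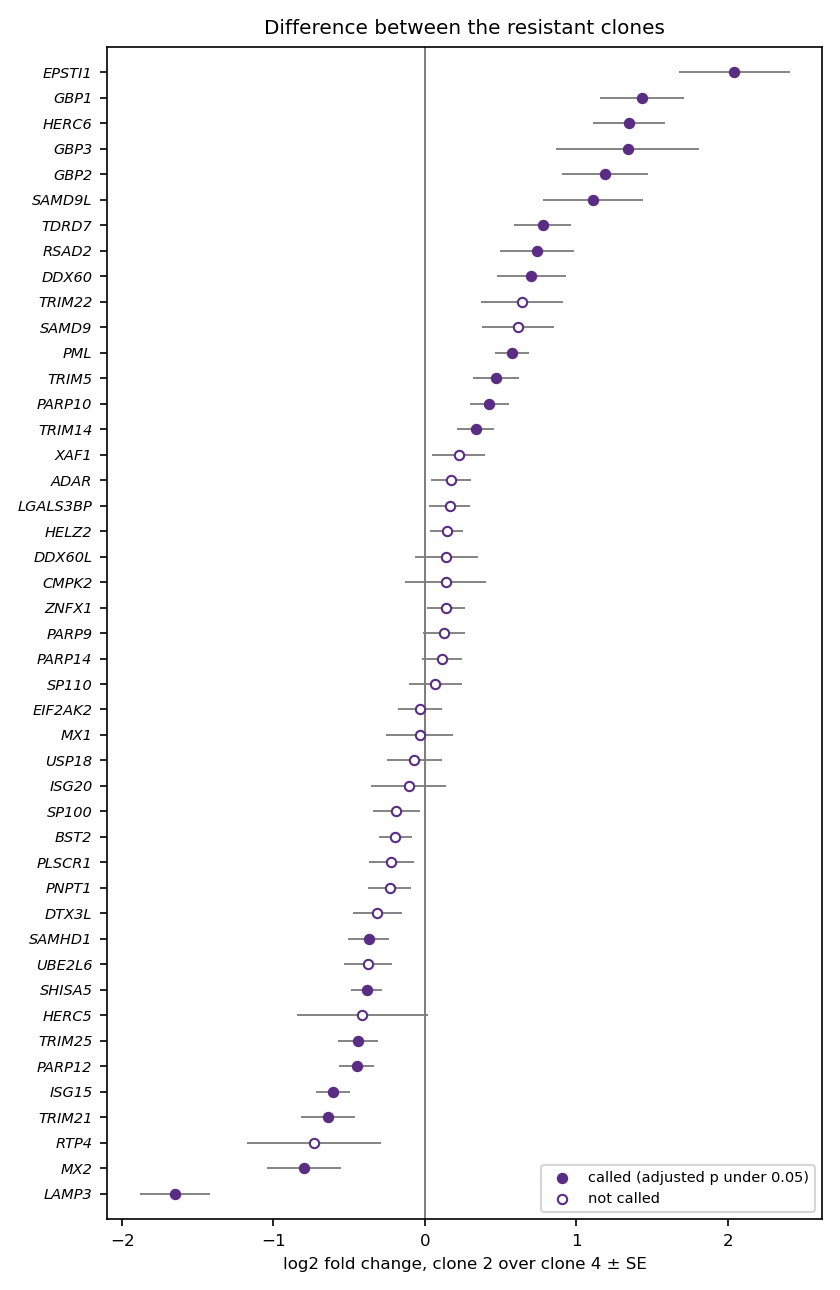
Log2 fold change of clone 2 over clone 4 (horizontal axis, ± SE) for each of the 45 genes, in order of its value; filled points were called at an adjusted p below 0.05. EPSTI1, GBP1, HERC6, GBP3, GBP2 and SAMD9L lie above 1, LAMP3 lies at -1.65 and the other genes lie between -1 and 1.

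Genes of the pathway above the effectors were looked at from a list of 42, of which 22 passed the filter on low counts. Of these 22, 13 were higher and 2 lower in clone 2, and 14 were higher and 2 lower in clone 4. Of all genes tested, 21.7% were higher and 20.8% lower in clone 2, and 22.1% were higher and 22.3% lower in clone 4. Among the 22, IRF9 and SOCS1 passed the filter only through the clones, so that a difference was built in for them. The same held for IFNL1 in clone 2. All of these were called higher in both clones. IRF9, a DNA-binding factor of the interferon response, was at 8.87 and 6.49 CPM in clone 2 and 6.94 and 8.85 CPM in clone 4, against 0.495, 0.771 and 0.366 CPM in parental cells, with log2 fold changes of 3.74 ± 0.295 and 3.79 ± 0.295. STAT2, which binds IRF9, rose by less, 0.78 ± 0.108 in clone 2 and 0.66 ± 0.108 in clone 4. IRF1 and IRF7, factors that drive interferon and target genes, rose by 2.23 and 2.01 in clone 2 and by 2.06 and 2.88 in clone 4.

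The brake genes SOCS1 and SOCS3, which inhibit JAK kinases, were higher in both clones. SOCS1 rose by 3.28 ± 0.434 in clone 2 and 3.21 ± 0.443 in clone 4, and SOCS3 by 1.16 ± 0.201 and 2.33 ± 0.184. Of the 9 receptor and JAK genes, 4 were higher and 1 lower in each clone, or 44.4% higher against 21.7% of all genes in clone 2 and 22.1% in clone 4. TYK2 rose by 1.24 in clone 2 and 0.53 in clone 4, IL10RB fell by 1.06 in clone 2, and JAK1 fell by 0.89 in clone 4. JAK1 in clone 2 was 0.07 and IL10RB in clone 4 was -0.07, and neither was called.

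Of 21 interferon ligand genes, only IFNL1, a type III interferon, passed the filter, at very few reads. The clone 2 libraries held 8 and 17 of its reads and the clone 4 libraries 7 and 6, against 1, 0 and 1 in the parental libraries. The ratio over parental cells was 18.6 in clone 2 (exact 95% interval 4.63 to 162) and 10.4 in clone 4 (2.36 to 95.3), intervals that cover counting error only. The test across genes called IFNL1 in both clones (adjusted p = 0.000597 and 0.00704, edgeR). IFNL1 passed the filter only through the clone 2 libraries, so that its difference in clone 2 was built in. The clone 4 libraries alone would not have passed it. For IFNL2 the ratios were 6.69 (1.38 to 63.6) and 5.62 (1.07 to 55.5), where clone 2 held 9 reads, clone 4 held 7 and parental cells 2. IFNL3 reads numbered 6 (clone 2) and 5 (clone 4), and 0 in parental libraries, which is at least 2.97-fold and 2.68-fold higher against a floor of 3 counts over the parental libraries. The exact lower limits that also take in the counting error of the clones were 1.75 and 1.47. IFNB1, a type I interferon, was covered by 2 reads (clone 2), 4 reads (clone 4) and 1 read (parental cells), and its clone 4 ratio of 6.42 had an interval from 0.636 to 316.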

How the data were processed

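Total RNA of 7 T47D libraries was sequenced. The authors deposited 1 table of unnormalized, whole-number counts, 1 row for each Ensembl gene beside its symbol, and these counts were used as deposited. The submitters' processing notes name the hg19 build and, with no version, CASAVA, FastQC and STAR. For the counting program, annotation release and strand setting, nothing is given in the sources used here. Genes without a symbol (6724) held 1.02% to 1.41% of the counts and were kept. Library totals ran from 10997625 to 17524621 counts, which sets the precision of low genes.

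The analysis used edgeR 4.0.16 in R 4.3.3: filterByExpr at a minimum count of 10, TMM scaling (factors 0.9526 to 1.083) and a robust quasi-likelihood fit of 3 group means to all 7 libraries. Genes with a Benjamini-Hochberg adjusted p below 0.05 over 17502 genes were called. The standard error of a log2 fold change is its size divided by the square root of the F statistic. A ratio with 1 to 3 counts in a group has an exact 95% interval. The procedure was tested on simulated counts.

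The 45 genes, the role groups and the other gene lists were chosen with earlier results of these data known. Values in every library are given for genes called between the clones at 2-fold or more, called lower, or not called in a clone, for the highest and lowest of each role group by the smaller fold, and for the ISG15 system. CMPK2 was added after its values were seen. Other genes are given by log2 fold change.

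The fits were repeated with DESeq2 1.42.0, with RLE in place of TMM, with genes kept from 1 count, with a filter of 1 CPM throughout a group plus 50 counts over the libraries, with 1.5-fold as the null change, on the compared groups alone, with a block for replicate number, and without each library in turn. Exon lengths and overlaps came from GENCODE release 29, and promoter windows from RefSeq on GRCh38.p14. These builds were used for names, lengths and promoter letters only, since the reads were aligned to hg19.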

Additional observations from a re-analysis of the deposited data

Results flagged for a closer look

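Genes whose change over parental cells differed between the clones, by the direct test of clone 2 against clone 4 (edgeR, adjusted p below 0.05), are given as log2 fold changes of clone 2 against clone 4. Higher in clone 2 were EPSTI1 (2.04), GBP1 (1.43), HERC6 (1.35), GBP3 (1.34), GBP2 (1.19), SAMD9L (1.11), TDRD7 (0.78), RSAD2 (0.74), DDX60 (0.70), PML (0.57), TRIM5 (0.47), PARP10 (0.42) and TRIM14 (0.34). Lower in clone 2 were LAMP3 (-1.65), MX2 (-0.80), TRIM21 (-0.64), ISG15 (-0.61), PARP12 (-0.45), TRIM25 (-0.44), SHISA5 (-0.39) and SAMHD1 (-0.37).

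Among genes of the interferon pathway outside the 45, JAK1 (0.96), TYK2 (0.71) and PIAS1 (0.59) were higher in clone 2, and SOCS3 (-1.17), IL10RB (-0.99) and IRF7 (-0.87) were lower. Among family relatives called in both clones at 2-fold or more, DTX4 (0.89) and PARP4 (0.65) were higher in clone 2 than in clone 4. At 36.5% of all genes tested called between the clones, a difference of this kind was common in the data.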

How the results depend on the processing

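Under RLE scaling, DESeq2, both other filters, fits of only the groups compared and a test against a fold of 1.5, between 34 and 38 of the 45 genes were called in clone 2 and between 29 and 39 in clone 4. Of the calls, 0 reversed. Against a fold of 1.5, the calls over all genes were 2177 in clone 2, 2382 in clone 4 and 1393 between the clones, and 4 of the 45 were called between the clones. DESeq2 called 36 and 38 of the 45 against parental cells and 15 between the clones. Leaving out 1 library gave 35 to 37 of the 45 in clone 2, 35 to 40 in clone 4 and 7 to 22 between the clones, and 4291 to 7988, 5355 to 8060 and 3289 to 7348 calls over all genes. The lowest values between the clones, 7 and 8, came without either clone 2 library. In fits of only the groups compared, the filter dropped RTP4 in clone 2 and GBP3 in clone 4. With the replicate number as a block, 39, 38 and 24 of the 45 and 8194, 8551 and 7831 genes were called in clone 2, in clone 4 and between the clones. Under the block, TRIM25 was called lower in clone 2 (-0.27, adjusted p = 0.0405, edgeR), SAMHD1 (0.34) and PNPT1 (0.38) were called higher there, and GBP3 lost its call in clone 4 (1.77, adjusted p = 0.0571). Between the clones it added UBE2L6, TRIM22 and SAMD9. In their names the clone 2 libraries carry other numbers, and their replicate numbers 1 and 2 only follow the order of those names. The block thus rests on that order for clone 2. The deviations of libraries with the same replicate number correlated at -0.078 to 0.186, so the numbers were not taken to pair libraries. The cause of these shifts was not tested. Few parental reads limit the folds of RSAD2, GBP3, RTP4, CMPK2 and SAMD9L.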

Other observations

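Of 52 family relatives of the 45 genes tested, 11 were higher and 18 lower in clone 2 (median -0.20 on the log2 scale), and 9 were higher and 21 lower in clone 4 (median -0.24). The 21.2% higher in clone 2 and 17.3% in clone 4 stand beside 21.7% and 22.1% of all genes tested. The 18 and 21 of 52 that were lower are larger shares than the 20.8% and 22.3% of all genes called lower. UBE2L3, the relative of UBE2L6 that serves ubiquitin, was lower in clone 2 (-0.47) and not called in clone 4 (-0.03). None of HERC1, HERC2, HERC3 and HERC4 was higher in either clone. Of the 10 genes for ubiquitin and other ubiquitin-like modifiers, only NEDD8 was higher in clone 2 (0.69), where 8 were lower, and in clone 4 NEDD8 (1.36) and FAU (0.72) were higher.

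Relatives called in both clones at 2-fold or more were few. DTX4, a Deltex ubiquitin ligase, was at 18 and 18.9 CPM in clone 2 and 10.4 and 9.60 CPM in clone 4, against 2.89, 2.25 and 3.30 CPM in parental cells. PARP2 and PARP3, which act in DNA repair, rose by 1.09 and 1.12 in clone 2 and by 1.19 and 1.09 in clone 4. PARP4 fell by 1.34 in clone 2 and by 1.99 in clone 4. Outside the 45, 32 tested genes held the extended ISRE in a promoter window. Of these, 24 (75.0%) were called higher in clone 2 and 17 (53.1%) in clone 4, against 21.8% and 21.9% of tested genes with a window but without it. Only the 45 were left out. Other interferon-stimulated genes, and genes that passed the filter only through the clones, may thus be among the 32. The cause of the difference was not tested. The difference was smaller for the core ISRE, which 389 tested genes outside the 45 held. Of these 389, 119 (30.6%) were called higher in clone 2 and 113 in clone 4, against 21.6% and 21.7% without the core. With the GAS letters 22.8% and 24.7% were called higher, against 21.9% and 21.7% without them.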
